A study of Mus musculus with 9 samples.

Results

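Small noncoding RNAs and the noncoding genes that host them were followed in kidneys of wild-type mice at 2 ages. Members were taken by gene symbol: small nucleolar RNAs (Snord for box C/D, Snora for box H/ACA), small Cajal body RNAs (Scarna), small nuclear RNAs (Rnu), Y RNAs (Rny), the small nucleolar RNA host genes (Snhg), and Rpph1, Gas5, Malat1 and Neat1. Of 13081 genes in the table, 36 were members, of which 9 were box C/D, 5 box H/ACA, 5 other small RNAs and 17 long noncoding genes. Rmrp, the RNA of RNase MRP, also met the definition but is not listed in the table analysed here. All mice were wild type, the labels name no treatment besides age, and the cohort was of the C57BL/6 strain. The young group was 3 months old (n = 4 libraries) and the old group 16 months old (n = 5). Each library was made from total RNA of kidney, so a member could come from any cell type of the organ. The group was chosen by symbol after the fold changes between these ages were known, so the values of its members by age are a description and carry no test.

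Most small nucleolar RNAs (snoRNAs) guide chemical changes to ribosomal RNA in the nucleolus. Box C/D snoRNAs direct the methylation of ribose, and box H/ACA snoRNAs direct the conversion of uridine to pseudouridine. A few of them, including U3 (Snord3a), U8 (Snord118), U13 (Snord13) and U17 (Snora73b), act in the processing or acetylation of ribosomal RNA instead. In mice most snoRNAs are cut out of the introns of a host gene after splicing, and in a host gene of the Snhg type the spliced exons code for no long protein. The mature forms of snoRNAs, Y RNAs and the RNA of RNase P end without a poly(A) tail, whereas Gas5, the Snhg RNAs and the short form of Neat1 carry one. The libraries here were primed with oligo(dT), and which adenines the primer met in each small RNA was not tested.

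The sequences of members that the results turn on are given first, so that the conserved boxes can be seen beside the values. They were read from the GENCODE vM21 transcripts of GRCm38, an older build than the GRCm39 genome the reads were aligned to, and are written as DNA in the sense of the RNA. Among box C/D members, capitals mark the first TGATGA (box C) and the last CTGA (box D). Snord89, at chr1:39548745-39548854 on the minus strand, took most of the small RNA reads in old kidneys. Snord87, at chr1:9942463-9942549 on the minus strand, lies in an intron of Snhg6. Snord104, at chr11:106500993-106501062 on the plus strand, is shown as the only small RNA member with a lower mean in old kidneys.
Snord89: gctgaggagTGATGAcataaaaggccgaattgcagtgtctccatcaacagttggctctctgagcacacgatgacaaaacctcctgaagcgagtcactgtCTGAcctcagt
Snord87: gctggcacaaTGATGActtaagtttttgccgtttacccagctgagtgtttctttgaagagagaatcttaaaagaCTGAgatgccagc
Snord104: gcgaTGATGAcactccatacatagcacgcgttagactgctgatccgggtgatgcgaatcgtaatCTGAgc
Both boxes were found in all 8 box C/D members with a sequence, which were 70 to 148 bases long. Of 6608 annotated transcripts of 70 to 205 bases, 8.72% held TGATGA, 52.8% held CTGA and 7.04% held both. Snord104 could not be told from the others by these boxes. The longest unbroken run of adenines was 4 in Snord89, 2 in Snord104 and 8 in Snord49b, the highest among small RNA members.

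For box H/ACA members and the other small RNAs, Snora30 (chr7:127527874-127528003, plus strand), Snora73b (chr4:132352322-132352526, minus strand), Rnu11 (chr4:132270080-132270213, minus strand) and Rny3 (chr6:47781624-47781725, plus strand) are shown, being the most abundant H/ACA member, the small RNA with the widest spread in old kidneys, and the 2 other small RNAs with the largest differences. Capitals mark the ACA within the last 8 bases of the H/ACA members, and no motif was searched in Rnu11 and Rny3 beyond the boxes above.
Snora30: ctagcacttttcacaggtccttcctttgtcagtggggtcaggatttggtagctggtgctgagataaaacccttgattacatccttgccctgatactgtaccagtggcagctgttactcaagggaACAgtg
Snora73b: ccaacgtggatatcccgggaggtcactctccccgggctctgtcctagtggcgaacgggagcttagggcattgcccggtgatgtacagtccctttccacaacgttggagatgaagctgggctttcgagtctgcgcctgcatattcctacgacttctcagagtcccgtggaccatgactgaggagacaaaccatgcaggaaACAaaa
Rnu11: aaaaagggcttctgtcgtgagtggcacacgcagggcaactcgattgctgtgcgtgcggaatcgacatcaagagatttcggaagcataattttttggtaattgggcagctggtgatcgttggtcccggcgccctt
Rny3: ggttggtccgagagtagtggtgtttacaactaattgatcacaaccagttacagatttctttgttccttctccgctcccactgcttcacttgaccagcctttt
All 5 H/ACA members held an ACA in their last 8 bases, against 19.7% of the annotated transcripts of 70 to 205 bases. The closing run of T in Rny3 is the usual end of an RNA polymerase III transcript.

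Values are normalised counts, that is, reads divided by the size factor of the library. A log2 fold change is old minus young on the log2(normalised count + 1) scale, with its standard error (SE) from limma, and it understates the change of genes with few reads. A gene was tested if 4 libraries or more had 10 or more normalised counts of it, and called if its adjusted p (Benjamini-Hochberg, over all 12667 tested genes) was under 0.05. The filter was passed by 33 of the 36 members, and Snora21, Snora47 and Snora73b did not pass. Among small RNA members, Snord13 and Snord104 alone reached 10 normalised counts in all 4 young libraries, and the others that were tested could pass only with the help of their old libraries. Of the 33, 20 were called higher and 10 lower in old kidneys, beside 59.7% of all tested genes called, 29.2% higher and 30.5% lower. Among all 36 members, the age groups did not overlap for 22 that were higher and 9 that were lower in old kidneys. The groups were likewise apart for 48.1% of all 13081 genes, for 23.0% upwards and for 25.1% downwards. These shares are given as the setting of the members and not as evidence about them, since the choice of the group used this difference.

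Most small RNAs were higher and most long noncoding genes lower in old kidneys. Of 19 small RNA members, 18 had a higher mean in old kidneys, with a median log2 fold change of 3.35. Of all 13081 genes of the table, 6703 had a higher mean. No gene of the table averages under 4.49 normalised counts, so members near 0 in young kidneys are listed only through their old libraries. This limit partly fixes the count and the median in advance. GENCODE vM21 holds 98 box C/D, 40 box H/ACA and 30 other small RNA symbols that meet the definition. Of 17 long noncoding members, 12 had a lower mean, with a median of -0.67, beside a median of 0.01 over all genes of the table. The 15 without Malat1 and Neat1 had a median of -0.72. In bulk kidney, fewer cells of a type and less RNA per cell cannot be told apart, and this applies to every level given here.

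**Figure D1:**
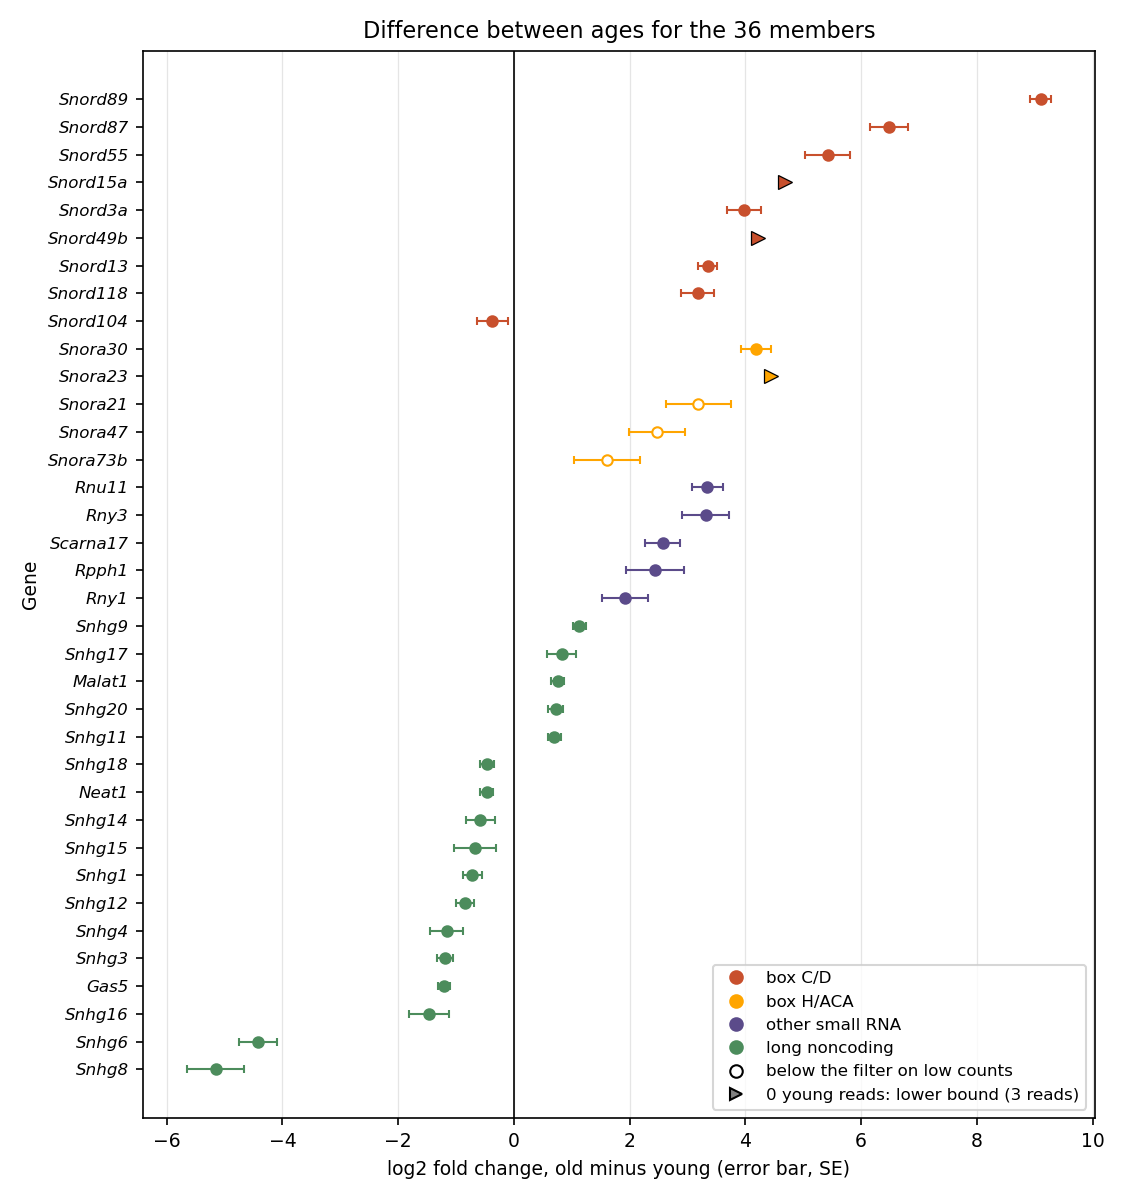
Log2 fold change, old minus young, of each of the 36 members (x axis, log2(normalised count + 1) scale) with its SE, in 4 colours by class. Open points did not pass the filter on low counts, and triangles are lower bounds for the 3 members with 0 reads in all young libraries. Small RNAs run from -0.37 for Snord104 to 9.11 for Snord89, and long noncoding genes from -5.16 for Snhg8 to 1.13 for Snhg9.

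Box C/D snoRNAs held the 3 largest differences of all members. Snord89 had 9.83, 8.74, 9.80 and 15.4 normalised counts in young libraries 1 to 4 and 6218, 4787, 4995, 8988 and 8324 in old libraries 1 to 5. Every old library was far above every young library, and the log2 fold change was 9.11 ± 0.18 (SE). The young values rest on 48 reads in all and the old values on 32058. Among the 5 old libraries the highest value was 1.88 times the lowest.

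Snord87, which guides ribosomal RNA methylation, had 0.819, 1.94, 0 and 2.72 normalised counts in young and 179, 173, 156, 190.3 and 252 in old libraries. The young values rest on 6 reads in 4 libraries and the old values on 906 reads in 5, a ratio of the summed reads per unit of depth of 139-fold (95% interval 63.5 to 379), an interval that covers counting error only. Its log2 fold change was 6.48 ± 0.32 (SE). Snord55 came to 86.05, 53.6, 40.6, 70.9 and 85.9 normalised counts in old libraries and to 3 reads in all young libraries together. The ratio was 97.7-fold (95% interval 33.1 to 476), and the young and old ranges were far apart.

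The snoRNAs of ribosomal RNA processing were also higher in old kidneys. U13, or Snord13, the RNA guide for acetylation of the small ribosomal subunit RNA, was the most abundant small RNA member in young kidneys, at 585, 314, 322 and 330.4 normalised counts. Old libraries had 5104, 3342, 3294, 3775 and 3809, without overlap, and the log2 fold change was 3.35 ± 0.16 (SE). Snord3a (U3), which acts in the first cleavages of the ribosomal RNA precursor, had 10.6, 11.7, 12.7 and 2.72 in young and 165, 139, 135, 146 and 147 in old libraries. The 5 old values of Snord3a were the most alike of any small RNA member, with a standard deviation (SD) of 0.11 on the log2 scale, and the difference was 3.98 ± 0.30 (SE). Snord118 (U8), needed for the large ribosomal subunit RNA, ranged from 4.90 to 13.1 in young and from 56.9 to 123 in old kidneys, and its log2 fold change was 3.18 ± 0.29 (SE).

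The box C/D members Snord15a and Snord49b had no read in any young library. Snord15a, in an intron of Rps3, had 16.5, 14.2, 12.2, 16.8 and 28.6 normalised counts in old libraries, which was at least 25.7-fold higher when the young group is set at a floor of 3 reads over all 4 libraries. Snord49b had 20.04, 12.03, 5.07, 10.3 and 18.03 and was at least 18.7-fold higher by the same floor. With these members at their bounds the median log2 fold change of the 9 box C/D members was 4.22, against 3.98 from the fit.

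Snord104 was the exception among all small RNA members. It had 30.3, 53.4, 38.2 and 39.8 normalised counts in young and 42.4, 44.8, 30.4, 23.3 and 19.1 in old libraries, and the groups overlapped. The log2 fold change was -0.37 ± 0.26 (SE), and the gene was not called. In young kidneys Snord104 was second to Snord13 among small RNAs, and in old kidneys it lay among the members with 10 to 100 normalised counts. Of the 9 box C/D members 8 were called, all of them higher, beside 29.2% of all tested genes. Apart from Snord13, those 8 passed the filter only with their old libraries, so that a call of higher follows from the filter.

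**Figure D2:**
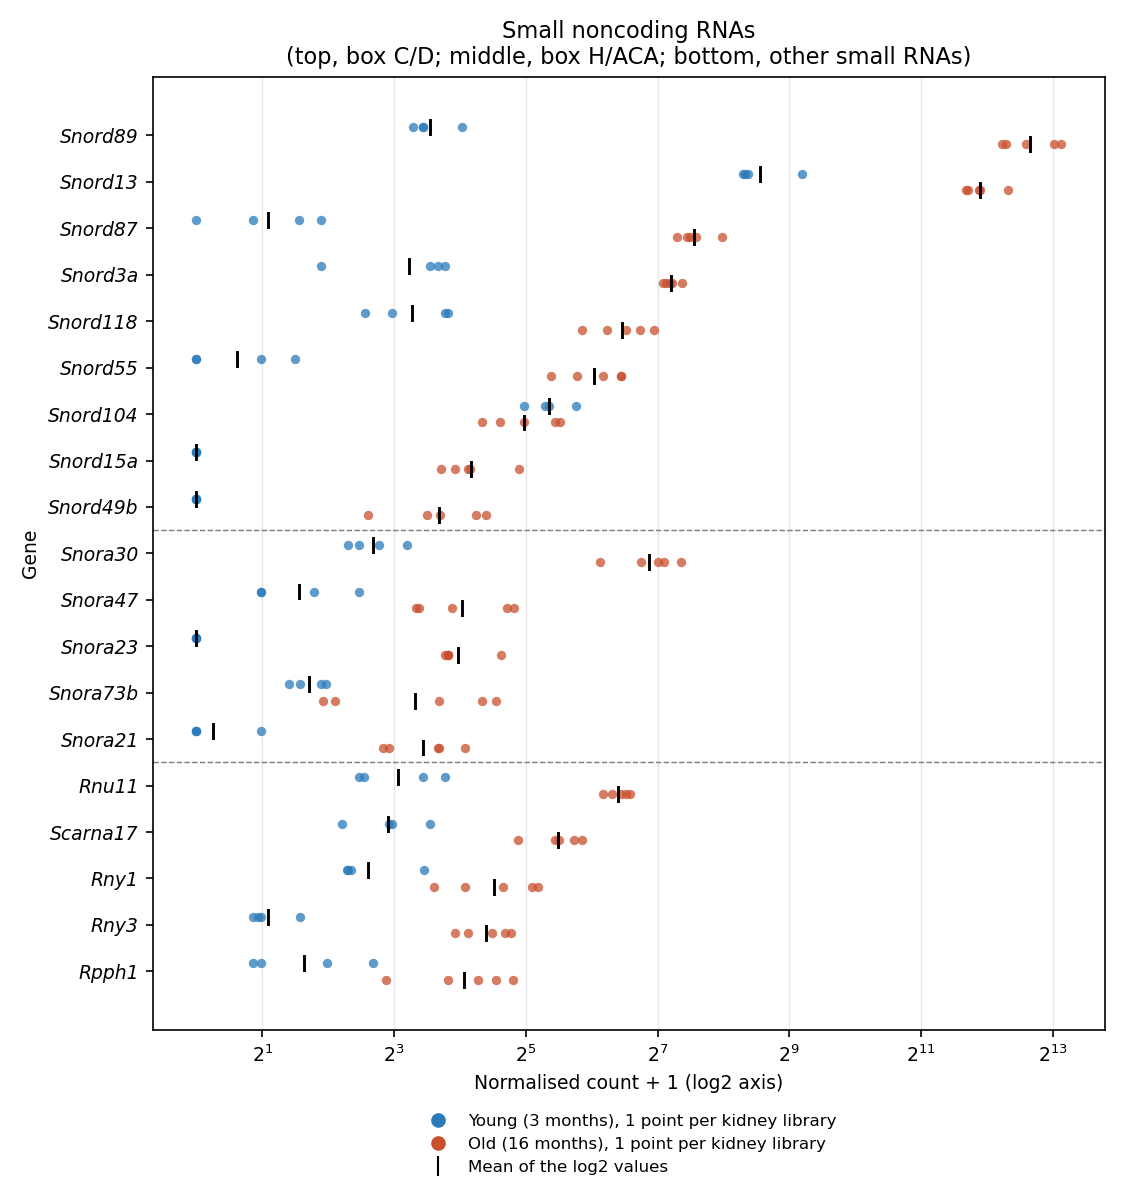
Normalised counts plus 1 on a log2 axis of the 19 small RNA members, 1 point per library (young, n = 4, blue; old, n = 5, red), with a bar at the mean of the log2 values. The groups are apart for 17 members and overlap for Snord104 and Snora73b.

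Box H/ACA snoRNAs were fewer and less abundant. Snora30 had 8.19, 5.83, 3.92 and 4.53 normalised counts in young and 136, 128, 106, 162 and 68.95 in old libraries, a log2 fold change of 4.18 ± 0.26 (SE) with no overlap. Snora23 had no read in any young library and 23.6, 13.1, 13.2, 13.1 and 12.7 normalised counts in old libraries, at least 21.7-fold higher with the young group at 3 reads. These were the 2 that passed the filter, both through their old libraries alone, so that a call of higher follows from the filter.

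The other 3 rested on few reads. Snora21 had 1 read in the young libraries and 50 in the old ones, a ratio of 45.9-fold (95% interval 7.87 to 1849.6). Snora47 had 10 and 82 reads, 7.53-fold (95% interval 3.89 to 16.3), and neither of these pairs of ranges overlapped. Snora73b (U17), which acts in the processing of the small ribosomal subunit RNA, had 1.64, 2.91, 1.96 and 2.72 normalised counts in young and 11.8, 3.28, 22.3, 2.80 and 19.1 in old libraries. Old library 4 lay inside the young range and old library 2 just above it, so that its groups overlapped. From 10 and 56 reads the ratio was 5.14-fold (95% interval 2.60 to 11.3). The SD of its 5 old log2 values was 1.23, the widest of any small RNA member.

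All 5 other small RNAs were higher in every old library than in any young library, beside 23.0% of all genes of the table. They too passed the filter only with their old libraries. Rnu11, the U11 RNA of the minor spliceosome, had 9.83, 4.86, 12.7 and 4.53 normalised counts in young and 90.8, 86.4, 78.1, 70.9 and 94.4 in old libraries. Its log2 fold change was 3.35 ± 0.27 (SE), and its 5 old values spanned only 1.33-fold. Scarna17, a guide for modification of small nuclear RNAs in Cajal bodies, had 6.55, 10.7, 6.86 and 3.62 in young and 56.6, 28.4, 42.6, 52.2 and 44.6 in old libraries, a difference of 2.57 ± 0.30 (SE) on the log2 scale. Old library 2 was the lowest of its group and still above every young library. Scarna17 shares 70.0% of its 50-base sequences with Gm25443 in GENCODE vM21, so its reads could in part be those of that gene.

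The Y RNAs, small RNAs bound by the Ro60 protein, both had higher values in old kidneys. Rny3 had 0.819, 0.972, 1.96 and 0.905 normalised counts in young and 24.8, 16.4, 14.2, 21.5 and 26.5 in old libraries, from 5 and 98 reads, a ratio of 18.001-fold (95% interval 7.46 to 56.7). Rny1 had 4.09, 3.89, 3.92 and 9.96 and 33.004, 24.1, 11.2, 35.4 and 15.9, and young library 4 came close to old library 3. The log2 fold change was 3.32 ± 0.40 (SE) for Rny3 and 1.92 ± 0.39 (SE) for Rny1. Rpph1, the RNA subunit of RNase P that trims the start of transfer RNA precursors, had 0.819, 0.972, 2.94 and 5.43 and 27.1, 13.1, 18.3, 22.4 and 6.36, a log2 fold change of 2.44 ± 0.49 (SE). It had 11 and 83 reads, a ratio of 6.93-fold (95% interval 3.68 to 14.4). In GENCODE vM21 Rpph1 overlaps an exon of Ccnb1ip1 on the same strand and shares 68.1% of its 50-base sequences with it, so its reads could in part be those of that gene.

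As a share of all reads in the table, small RNAs went from 0.00832% to 0.0131% in young libraries to between 0.171% and 0.254% in old ones. Snord89 made up 1.44% to 3.48% of the small RNA reads in young and 50.2% to 65.5% in old libraries. Together with Snord13 it held 75.3% to 86.9% and 90.6% to 92.9%. The 17 other small RNAs held 0.00172% to 0.00214% of all reads in young and 0.01598% to 0.01997% in old libraries, so their share was also without overlap. Long noncoding members took 0.237% to 0.279% in young and 0.290% to 0.385% in old libraries, and Malat1 alone 0.133% to 0.160% and 0.207% to 0.287%.

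The 2 mitochondrial ribosomal RNAs, which are not members, moved with age in the same libraries. They took 2.98% to 4.46% of reads in young and 21.8% to 25.4% in old libraries, while the total number of reads overlapped, at 5093029 to 6355095 in young and 4486406 to 5794960 in old libraries. In old libraries 1 to 5 the small RNA share was 0.234%, 0.171%, 0.188%, 0.254% and 0.241%, and the mitochondrial ribosomal RNA share was 23.7%, 22.8%, 21.8%, 24.5% and 25.4%. Libraries 2 and 3 were the lowest and libraries 4 and 5 the highest of the old group in both. The same held for Snord89 alone, at 0.118%, 0.0910%, 0.103%, 0.166% and 0.154%. Snord13 was instead highest in library 1, at 0.0965%, 0.0636%, 0.0682%, 0.0698% and 0.0703%. So was the sum of the small RNAs without Snord89 and Snord13, at 0.01997%, 0.01598%, 0.0167%, 0.0179% and 0.0173%. Libraries 2 and 3 were the lowest for these as well. The titles of the libraries carry one prefix for young and another for old mice, so age and any step of preparation tied to the prefix cannot be told apart. The part of either in the small RNA values was not tested.

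**Figure D3:**
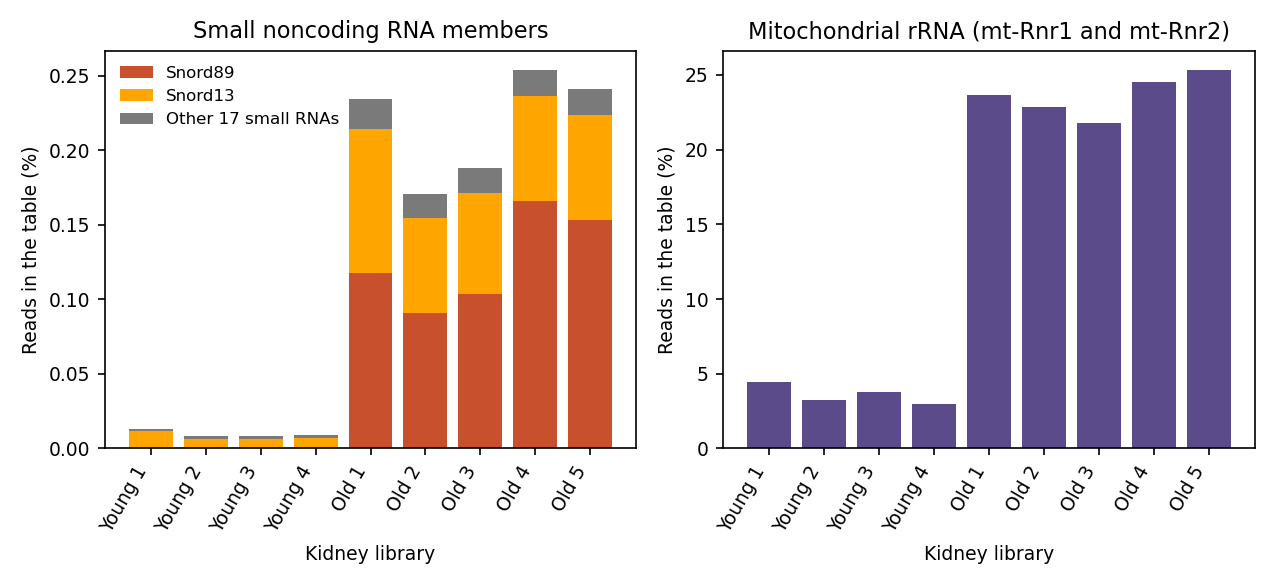
Left, percent of reads in the table from Snord89, Snord13 and the 17 other small RNA members, stacked, for each of 9 libraries. Right, percent from the 2 mitochondrial ribosomal RNAs in the same libraries. All 5 old libraries stand above all 4 young libraries in both panels, at 0.171% or more against 0.0131% or less on the left and at 21.8% or more against 4.46% or less on the right.

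The gene that holds a snoRNA is made as one precursor with it, so both were set side by side. In GENCODE vM21, 9 of the small RNA members considered for this lie inside a gene on the same strand, and for 8 of them the host is in the table, which gave 10 pairs with 10 hosts. The small RNA had the higher log2 fold change in all 10 pairs, by 1.78 to 10.9. All 8 small RNAs had under 10 normalised counts in every young library. They were listed or passed the filter only through their old libraries, so this outcome was close to fixed in advance. Snora30 and Snora73b each count in 2 pairs. Of the 10 hosts, 2 were called higher, 6 lower and 2 were not called, beside 29.2% of all tested genes higher and 30.5% lower. Snhg6 and Snhg3, both called lower, are members themselves.

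Snord87 and Snhg6 were the pair furthest apart. Snhg6 had 142, 127, 133 and 123 normalised counts in young and 11.8, 6.56, 2.03, 3.73 and 5.30 in old libraries, a log2 fold change of -4.43 ± 0.33 (SE). In the same libraries the snoRNA from its intron went from at most 2.72 to at least 156. Snhg6 was above Snord87 in every young library and below it in every old library.

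Some hosts code for ribosomal proteins. Rps3, host of Snord15a, had 1255 to 1456 normalised counts in young and 693 to 956 in old libraries, and was called lower at -0.72 ± 0.10 (SE). Rpl23, host of Snora21, had 2345 to 2706 in young and 1262 to 1743 in old libraries, and was called lower at -0.74 ± 0.10 (SE). The snoRNAs of both were higher in every old library than in any young library.

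Among the 8 with a host in the table, Snora30 was the only one whose hosts were called in its own direction. Srcap, a chromatin remodelling ATPase, ranged from 16.3 to 25.4 in young to 53.7 to 81.2 in old kidneys, 1.61 ± 0.21 (SE), and Gm42715, a gene model that overlaps it, differed by 2.40 ± 0.22 (SE). Snora73b lies in introns of both Rcc1, which codes for the nucleotide exchange factor of Ran, and Snhg3. Rcc1 ranged from 105 to 175 in young and from 2.36 to 22.97 in old kidneys, -3.74 ± 0.40 (SE). Snhg3 and Rcc1 share exons, and a read in those would be assigned to neither or to one of them depending on the counting. The remaining hosts were Ipo7 for Snora23 (-0.32 ± 0.15, not called), Zbed3 for Snora47 (-0.18 ± 0.15, not called) and 2410006H16Rik for Snord49b (-0.76 ± 0.23, called lower). Snord89 lies in the gene model Gm15832, which is not listed in the table.

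**Figure D4:**
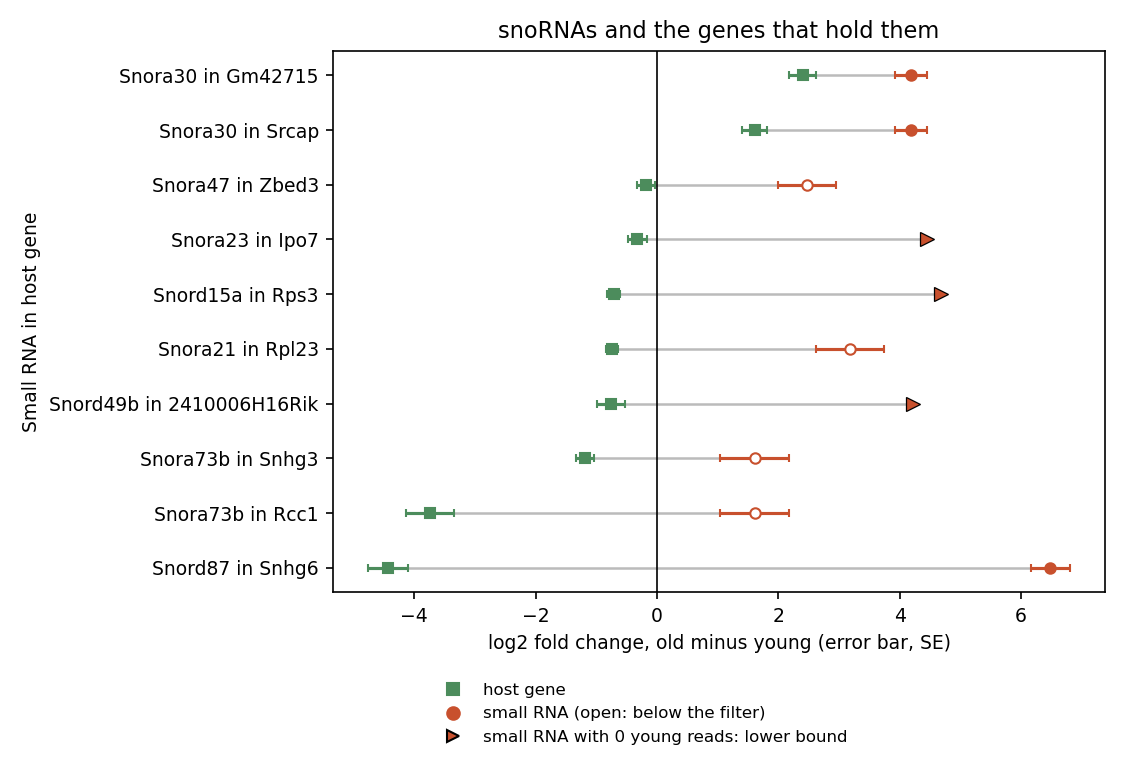
Log2 fold change, old minus young, of 8 snoRNAs (circles; open, below the filter on low counts; triangles, lower bounds with 0 young reads) and of the genes that hold them (squares), each with its SE, in 10 pairs. Every circle or triangle lies to the right of its square, and the widest gap is that of Snord87 and Snhg6. The small RNAs were listed or passed the filter only through their old libraries, which largely fixes that side.

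Long noncoding members were split. Of 17, 10 were called lower, 5 higher and 2 were not called, beside 30.5% of all tested genes called lower and 29.2% higher. The groups did not overlap for 14, and for 48.1% of all genes of the table. Snhg8 had 233, 266, 244 and 258 normalised counts in young and 1.18, 28.4, 2.03, 8.40 and 8.49 in old libraries, a log2 fold change of -5.16 ± 0.50 (SE). Old library 2 was the highest of its group and still far below every young library. Together with Snhg6, it was much further from 0 than the other 15, which lay between -1.47 and 1.13.

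Gas5, whose spliced RNA is made in growth-arrested cells and removed by nonsense-mediated decay during growth, had 853, 783, 929 and 664 normalised counts in young and 298, 350.04, 370.2, 340.5 and 379.8 in old libraries. Its log2 fold change was -1.21 ± 0.11 (SE), and the old values were close together, with an SD of 0.14 on the log2 scale. Snhg3 was lower by a similar amount, -1.19 ± 0.15 (SE), with 145 to 167 in young and 53.04 to 77.1 in old kidneys. Snhg16 had 28.7, 12.6, 24.5 and 23.5 in young and 7.07, 7.66, 5.07, 10.3 and 6.36 in old libraries, -1.47 ± 0.34 (SE). For Snhg16 young library 2 lay nearest the old group.

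Smaller differences in the same direction were found for Snhg12 at -0.85 ± 0.16, Snhg1 at -0.72 ± 0.17 and Snhg18 at -0.46 ± 0.12 (SE). Snhg4 had 67.2, 58.3, 78.4 and 69.7 normalised counts in young and 21.2, 59.1, 40.6, 28.9 and 15.9 in old libraries, and it was called lower at -1.16 ± 0.29 (SE) although old library 2 reached the young range. Snhg14, a long transcript antisense to Ube3a, and Snhg15 overlapped between the ages and were not called, at -0.58 ± 0.25 and -0.67 ± 0.37 (SE).

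Malat1 and Neat1, neighbouring genes of the cell nucleus on chromosome 19, went in opposite directions. Malat1, an RNA of nuclear speckles, was the most abundant member, at 8325, 7125, 7516 and 6592 normalised counts in young and 11716, 10866, 13869, 12304 and 13713 in old libraries. Its log2 fold change was 0.76 ± 0.11 (SE), and it was called higher. Neat1, the scaffold RNA of paraspeckles, had 2944, 2409, 2337 and 2222 in young and 1572, 1737, 2179, 1562 and 1891 in old libraries and was called lower at -0.47 ± 0.11 (SE). The gap between the groups was narrow for Neat1, since old library 3 lay just under young library 4.

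Among the Snhg genes 4 were called higher. Snhg9, which overlaps Rps2 on the opposite strand, had 325, 263, 344 and 284 normalised counts in young and 765, 700.1, 644, 653 and 564 in old libraries, 1.13 ± 0.11 (SE). Snhg11, which GENCODE vM21 lists as protein-coding, ranged from 381 to 557 in young to 679 to 882 in old kidneys, 0.70 ± 0.12 (SE). Snhg17 and Snhg20 differed by 0.82 ± 0.25 and 0.72 ± 0.14 (SE). All 4 were without overlap, with Snhg17 closest, at no more than 25.3 in young and no less than 26.1 in old libraries.

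**Figure D5:**
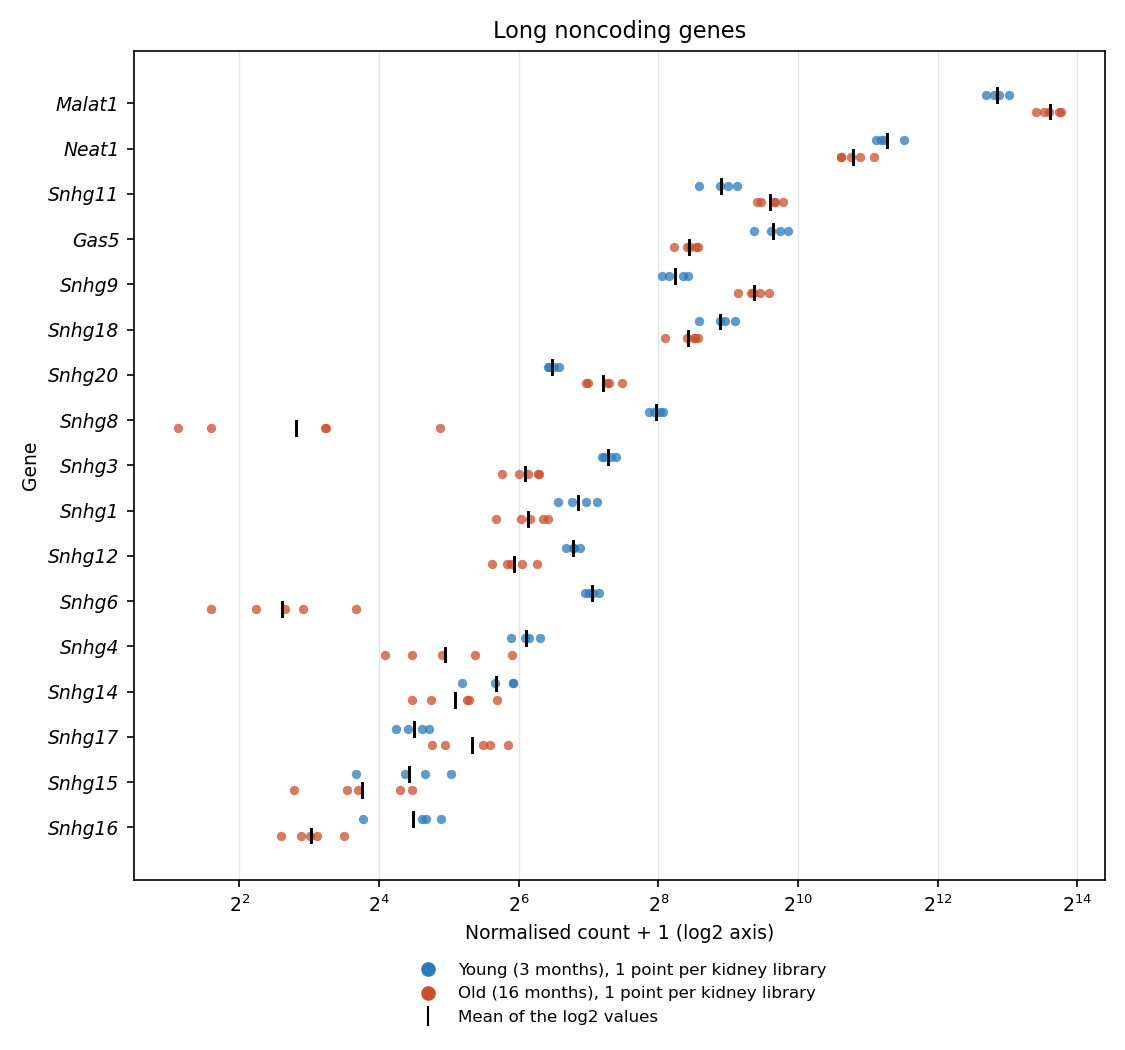
Normalised counts plus 1 on a log2 axis of the 17 long noncoding members, 1 point per library (young, n = 4, blue; old, n = 5, red), with a bar at the mean of the log2 values. Snhg8 and Snhg6 fall from over 100 normalised counts in every young library to under 30 in every old library, whereas Malat1, Snhg11, Snhg9, Snhg20 and Snhg17 stand higher in old libraries.

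Many host genes of snoRNAs begin with a stretch of pyrimidines, as the messenger RNAs of ribosomal proteins do, and such stretches are read by mTOR signalling at translation. The starts of 2 genes with a large or moderate loss and 2 with a gain are given for this reason, from 10 bases before the RefSeq start (GRCm38.p6) to 20 from it, with the longest unbroken run of C or T in capitals. They are Snhg8 (chr3:123508317-123508346, minus strand), Snhg12 (chr4:132308668-132308697, plus strand), Snhg9 (chr17:24719946-24719975, minus strand) and Malat1 (chr19:5802653-5802682, minus strand).
Snhg8: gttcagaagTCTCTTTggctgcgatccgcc
Snhg12: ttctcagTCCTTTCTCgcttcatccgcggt
Snhg9: aCTTTCCCTCgccgaagccgcgccctacac
Malat1: ggCTCTgcgtcaggcattcaggcagcgaga
The run was 7 in Snhg8, 9 in Snhg12, 9 in Snhg9 and 4 in Malat1. A run of at least 5 was found in 10 of the 16 RefSeq starts of 14 members, and in 46.4% of all 32851 starts. Genes that were lower and genes that were higher in old kidneys both had such runs. TATAA stood 40 to 15 bases before the start in Snhg8 and Snhg12, against 3.79% of all starts. Only the sense strand was searched, and a match is a description of these letters only.

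The variation among libraries of one age was not used to choose the members. In old kidneys the median SD of the log2 values was 0.43 for box C/D, 0.54 for box H/ACA, 0.37 for other small RNAs and 0.24 for long noncoding members, beside 0.29 for all genes of the table. In young kidneys it was 0.43, 0.40, 0.57 and 0.18, beside 0.19. Most small RNAs had few reads there, where 1 read more or less moves the value. Snord15a, Snord49b and Snora23 had no young read, so they entered these young medians with an SD of 0. Among the old libraries, number 1 was the highest for 8 of 19 small RNAs and number 3 the lowest for 10. For the long noncoding members library 3 was instead the highest for 7 of 17. The widest spread of all members was in Snhg8, with an SD of 1.497 in old against 0.08 in young kidneys.

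The genes of proteins that work with these RNAs are no members and were tested with limma over all genes. In all, 9 lists with 80 symbols were used, of which 77 genes were tested. The test called 27 higher and 17 lower, or 57.1%, a share close to that of all genes. Of all tested genes 29.2% were called higher and 30.5% lower, and the counts of each list below stand beside these shares. For the box C/D core proteins (Fbl, Nop56, Nop58 and Snu13), 0 of 4 were called by limma at an adjusted p under 0.05, with 0 of 4 at an unadjusted p under 0.05 and 0 of 4 by edgeR or DESeq2.

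For the box H/ACA core, Dkc1, the pseudouridine synthase, rose from 109.7 ± 8.70 to 179 ± 37.2 normalised counts (SD, n = 4 and 5), by 0.68 ± 0.15 (SE), adjusted p = 6.22e-04 in limma. Gar1, another core protein, fell from 52.5 ± 3.98 to 8.38 ± 2.94, -2.56 ± 0.28 (SE), adjusted p = 2.75e-07 in limma, and Nhp2 fell less (-0.29 ± 0.11 (SE), adjusted p = 0.0375 in limma, below all young libraries in 4 of 5 old ones). For the other partner genes given with an adjusted p, all 5 old libraries lay beyond all 4 young ones, except where stated. Of 10 genes of snoRNP assembly 4 rose and 2 fell. Shq1, a chaperone of Dkc1, fell from 16.2 ± 4.89 to 2.78 ± 3.28, -2.53 ± 0.56 (SE), adjusted p = 7.39e-04 in limma, and Ruvbl2, an ATPase of the assembly complex, by -1.27 ± 0.25 (SE), adjusted p = 2.56e-04 in limma. Its partner Ruvbl1 and the assembly factors Nufip1, Naf1 and Nolc1 rose, by 0.72, 1.09, 0.77 and 0.44 on the log2 scale.

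RNase P and RNase MRP, which share most of their proteins, had 10 subunit genes tested. Of these 5 fell and 1, Pop1, rose by 0.90 on the log2 scale, beside 30.5% of all tested genes lower and 29.2% higher. Whether the list differs from other genes was not tested. Rpp21 went from 227 ± 4.42 to 104 ± 10.1 normalised counts, -1.12 ± 0.12 (SE), adjusted p = 2.21e-07 in limma, and Rpp38 differed by -1.43 ± 0.29 (SE), adjusted p = 3.88e-04 in limma. Rpp14, Rpp30 and Rpp40 also fell. The RNA subunit Rpph1 was higher in the same old libraries in which these 5 protein genes were lower.

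Enzymes that trim, tail or degrade the ends of small RNAs went both ways, with 7 of 20 higher and 5 lower. Tent4b, a poly(A) polymerase that adds short tails to snoRNA precursors, rose from 170.04 ± 17.5 to 409 ± 63.2 normalised counts, 1.25 ± 0.12 (SE), adjusted p = 8.57e-08 in limma. Exosc3, a cap subunit of the RNA exosome, fell from 45.8 ± 4.90 to 6.43 ± 2.84, -2.75 ± 0.33 (SE), adjusted p = 1.15e-06 in limma. Dis3 and Exosc10, the nucleases of the exosome, rose by 1.16 and 0.67, and of the other subunits Exosc1 and Exosc5 rose by 0.50 and 0.53, while Exosc7, Exosc8 and Exosc9 fell by 0.80, 0.71 and 0.84 on the log2 scale. Exosc2 (-0.23) and Exosc4 (0.03) were not called. The groups overlapped for Exosc1, Exosc5, Exosc7 and Exosc10. Rbm7 fell as well, and all but Tent4b and Exosc3 were picked after their values were seen.

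Nonsense-mediated decay removes spliced Gas5 and several Snhg RNAs. Of its 10 genes 6 rose, 1 fell and 3 were not called, beside 29.2% of all tested genes higher and 30.5% lower, and whether the list differs from other genes was not tested. Upf1, the helicase at its centre, rose from 182 ± 16.3 to 541 ± 43.9 normalised counts, 1.56 ± 0.10 (SE), adjusted p = 4.85e-10 in limma. Smg8 fell, -1.74 ± 0.39 (SE), adjusted p = 8.06e-04 in limma.

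Among paraspeckle proteins, which assemble on Neat1, Nono fell (-0.71 ± 0.11 (SE), adjusted p = 1.67e-05 in limma) and Pspc1 rose (0.73 ± 0.23 (SE), adjusted p = 0.0102 in limma, in 4 of 5 old libraries above all young ones). Sfpq and Rbm14 also rose and Hnrnpk fell, by 0.44, 0.69 and -0.23 on the log2 scale. The groups overlapped for Sfpq, with 2 of 5 old libraries above all young ones, and for Hnrnpk, with 4 of 5 below. The adjusted p of Hnrnpk was 0.0484 in limma, and of this list edgeR and DESeq2 each called 1 gene lower, against 2 in limma. Ro60, which binds the Y RNAs, rose from 133 ± 19.6 to 185 ± 19.8, 0.48 ± 0.13 (SE), adjusted p = 0.00414 in limma. For processing of small nuclear RNAs and the Cajal body, 4 of 11 rose and 0 fell by limma. At an unadjusted p under 0.05 in limma 5 were higher and 0 lower, and edgeR and DESeq2 each called 5 higher and 0 lower. The 4 called by limma were Ncbp1 of the cap-binding complex (1.07 ± 0.14 (SE), adjusted p = 3.05e-06 in limma), the cap methylase Tgs1 (0.94 ± 0.17 (SE), adjusted p = 9.12e-05 in limma), Smn1 and Ncbp2.

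Annotated small RNA genes outside the chosen symbols were also mostly higher in old kidneys. Of 41 such genes in the table, 40 had the higher mean in old kidneys, and 35 were higher in every old library than in any young one, beside 23.0% of all genes of the table. Those 35 were 10 of 11 snoRNAs under other names, 18 of 20 mitochondrial transfer RNAs, both mitochondrial ribosomal RNAs, 1 of 2 small nuclear RNAs, 2 of 3 microRNA genes, 1 of 2 scaRNAs and 1 other. The exception in direction was Mir703, which was lower. The median log2 fold change was 3.08 over all 41, next to 3.35 over the 19 small RNA members. No gene of the table averages under 4.49 normalised counts. Genes near 0 in young kidneys, such as Gm22519 and mt-Ty at 0, are thus listed only through their old libraries. These counts and medians are partly fixed by that limit and are no separate evidence for the members. Replication-dependent histone genes have messenger RNAs that end in a stem-loop in place of a poly(A) tail. Of 9 tested, 3 were called higher (H2ac20 at 5.12, H4c4 at 2.22 and H1f4 at 2.13 on the log2 scale) and 3 lower (H2bc21 at -1.14, H2bc4 at -1.44 and H4c8 at -1.65), beside 29.2% and 30.5% of all tested genes. Their median was 0.23, and the difference from the small RNA genes was not tested.

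The tissue label was checked with 12 kidney markers, all of which were in the table, with a summed level of 33884 to 35539 normalised counts in young and 38221 to 45788 in old libraries, 7 called higher and 2 lower. None of 4 adrenal markers is listed in the table. Of 5 markers of B and plasma cells 3 are listed, Jchain, Ighm and Igkc, without Cd79a and Ms4a1, and their sum was 241 to 695 in young and 910.4 to 3231 in old libraries, all 3 higher. Macrophage markers summed to 430.4 to 511 in young and 457 to 663 in old libraries, which overlapped, with 2 of 4 called higher. The sums also overlapped between the ages for adipocyte markers (271 to 1427 and 56.0 to 1033, 0 of 4 called higher and 1 lower) and for erythroid markers (13449 to 19222 and 12395 to 30224, 2 of 4 higher and 1 lower). Of all tested genes 29.2% were called higher and 30.5% lower. The 1 listed T cell marker had no more than 15.3 in any library. The part of these cells in the values of the members was not tested.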

How the data were processed

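RNA of mouse kidneys was measured by oligo(dT)-primed, stranded sequencing of transcript ends (QuantSeq, single reads). According to the submitters' processing notes and the methods of the study, the authors checked reads with FastQC 0.11.7, aligned them to GRCm39 with TopHat2 2.0.10, Bowtie 1.0.0 and SAMtools 0.1.19, and counted them per gene with HTSeq 0.6.1 by strand. The deposited table holds a signal per gene, the counts divided by the DESeq size factor of each library. All values (100%, within 0.01) were whole multiples of 1 read, so whole reads were recovered. They came to 4486406 to 6355095 per library, and 1 read was worth 0.819 to 1.18 normalised counts. Intervals and floors (3 reads) cover counting error only.

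The members and all gene lists were chosen with earlier results of these data known. Old and young libraries were compared on log2(normalised count + 1) with limma 3.58.1 (R 4.3.3, trended eBayes, no covariate). Tested genes had 10 or more normalised counts in 4 or more libraries, and Benjamini-Hochberg adjustment ran over all tested genes. The test was tried on simulated data with known changes. Library numbers follow the order of listing. Nothing in the labels says that libraries of one age came from separate litters or preparations, so p-values measure the spread between these samples.

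Of the members, 34 of 36 were placed in GENCODE vM21 (GRCm38), 1 by an older symbol, and 18 of 19 small RNAs had a sequence there, so positions and hosts are those of that build. Snord3a and Snhg4 were not placed. Some genes and sequences are not reported here. Ratios of summed reads were given for members with 1 to 11 young reads, with exact 95% intervals. Named were all members of classes of up to 6, in larger classes the 4 most abundant and the 4 with the largest difference, members whose groups overlap or that go against their class, Gas5, Malat1, Neat1 and Rpph1, hosts, and 2 called partners per list. The others named were chosen after their values were seen. Alternatives were other scalings (TMM factors, equal totals, mitochondrial and member genes left out), pseudocounts of 0.1 and 5, no filter or an average of 100 or more, robust eBayes, reads thinned to the smallest total, recovered reads fitted with DESeq2 1.42.0 or edgeR 4.0.16, each library left out, and members that share sequence or exons left out.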

Additional observations from a re-analysis of the deposited data

Results flagged for a closer look

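Within 1 age, the gap of the farthest library to its nearest neighbour was compared with the whole range of its group on the log2(normalised count + 1) scale. Of 77 groups tested for members and class shares, 7 had a library past the 95% limit of Dixon's test, where chance gives 3.85. In young libraries, Snord13 stood alone in library 1 at 585 normalised counts, with a gap of 0.917 of the range, and the box C/D share of reads stood out in the same library, with a gap of 0.882. Young library 4 was the highest for Rny1, at 9.96 normalised counts and a gap of 0.948, and the lowest for Snord3a, at 2.72 and a gap of 0.873. Rny3 in young library 3 had a gap of 0.835, and Snora21 in young library 2, the only young library with a read of it, a gap of 1. In old libraries, Snora23 was highest in library 1, at 23.6 normalised counts and a gap of 0.944. None of these libraries moved its group across the other age, and the values of Rny3 and Snora21 rest on 1 or 2 reads.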

How the results depend on the processing

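No paired analysis was possible because the library titles carry no replicate number that the age groups share. Over all alternatives no tested member changed direction, and the only member whose call changed where it was tested was Snhg14, which passed the threshold in 6 of its alternatives, 3 of them with a library left out (young library 4, old library 2 or old library 3). Calls were also lost where members no longer passed the filter: Rpph1 was not tested without old library 1, 2, 3 or 4, and Snord49b not without old library 1, 2, 4 or 5 or with equal totals. The number of members called was 30, and it ran from 28 to 31 with a library left out, with 18 higher instead of 20 without old library 1, 2 or 4. edgeR and DESeq2 called the same numbers as limma, 20 higher and 10 lower. Scaling by totals without mitochondrial and member genes, chosen after the data were seen, moved the median of all genes by 0.14 on the log2 scale, and no member changed direction relative to it. Keeping genes that averaged 100 normalised counts or more left 12 members called (3 box C/D, 0 box H/ACA, 0 other small RNAs and 9 long noncoding), 20 partner genes instead of 44, and 12 other nonpolyadenylated RNAs, histones included, instead of 39, since fewer genes were tested. Without a filter all 5 box H/ACA members were called. Leaving out members that share a 50-base sequence with another gene left 14 called, of which 1 was box H/ACA, 2 other small RNAs and 4 long noncoding. Leaving out those that overlap an exon on the same strand left 18, of which 4 were long noncoding. Without Snord89, chosen after the data were seen, the mean small RNA share in old libraries was 0.0912% instead of 0.218%. Depth limits the members with under 12 reads in young libraries, whose ratios carry wide intervals. Their log2 fold changes also moved over the alternatives by more than the printed SE. They ran from 4.94 to 7.78 for Snord87, from 2.04 to 4.17 for Rny3 and from 1.53 to 2.96 for Rpph1. With more young reads, Snord13 ran from 3.24 to 3.56 and Snord89 from 8.68 to 9.27.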
